A study of Mus musculus with 4 samples.

Results

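The gene entries described here had few or no counts in pre-ALT cells at PD100 and were counted in post-ALT cells at PD800. For *Gm2436* and *1700047I17Rik2*, a copy of the same sequence was read at PD100. They were chosen by the expected counts themselves: a gene was taken when it had at most 3 counts in both PD100 libraries and at least 20 counts in both PD800 libraries. An expected count is the number of read pairs that RSEM assigns to a gene, in which a pair that fits several genes is divided between them. Of the 53379 genes in the tables, 18 met the limits. Because the counts chose the genes, the rise from PD100 to PD800 is given below as a description and was not tested. Under the same limits with the groups exchanged, 67 genes were silenced at PD800.

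The cells were DKO741, a *Terc*−/− mouse embryonic stem cell (mESC) line made from E14 cells, in which both alleles of the telomerase RNA gene were replaced. ALT, alternative lengthening of telomeres, is the maintenance of chromosome ends without telomerase. PD100 cells were harvested before ALT and PD800 cells after it, with 2 libraries in each group and the *Terc* deletion in all 4. Both groups descend from 1 of 2 recovered knock-out lines, so that time in culture, ALT and changes particular to this line cannot be told apart. Cells were kept on fibroblast feeders but were feeder-free for extraction. The paper calls the libraries biological duplicates, and the labels also count the cells by passage, 100 and 800.

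The libraries held between 32454121 and 38492149 expected counts, which puts a floor of 3 counts at 0.0743 to 0.0934 CPM (library-size scaled counts). The floor and the intervals below cover counting error only. *Terc* had 1 count in PD100 replicate 1 and 0 in the other 3 libraries. Of 7 embryonic stem cell markers, 2 were called higher and 0 lower at PD800, *Nanog* by 2.32 and *Esrrb* by 2.06 on the log2 scale. With 2 libraries per group, an exact permutation test of 1 gene cannot fall below p = 0.333, so the tests of other genes below rest on the spread that edgeR estimates over all genes. Calls needed a fold change over 2 together with an adjusted p below 0.01. In that test 1202 of 19148 genes were called higher at PD800 (6.28%) and 1686 were called lower (8.81%), and the median log2 fold change was 0.01. All 18 switched-on genes passed the expression filter, and they passed it through PD800, since 0 of them had 10 counts in both PD100 libraries.

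In embryonic stem cells most genes of differentiated lineages are kept at a very low level, and a few reads from them are common. Genes that lie in tandem copies add a difficulty, because a short read from one copy can fit another. Long non-coding transcripts often start close to, or inside, a protein-coding gene and share its chromatin. For these reasons the genes are described by what they encode, by whether another gene has nearly the same sequence, and by the genes around them.

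By gene kind, 7 of the 18 were protein-coding (38.9%), 4 were lincRNAs, 3 were TEC entries (transcripts that await experimental checking), and 1 each was an antisense transcript, a sense intronic transcript, a processed transcript and an unprocessed pseudogene. Protein-coding genes made up 77.2% of all tested genes and 86.6% of the genes silenced at PD800, that is 58 of the 67. The switched-on genes lay on 13 chromosomes. Only *Gm2436* and *1700047I17Rik2* lay within 500 kb of another switched-on gene.

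**Figure D1:**
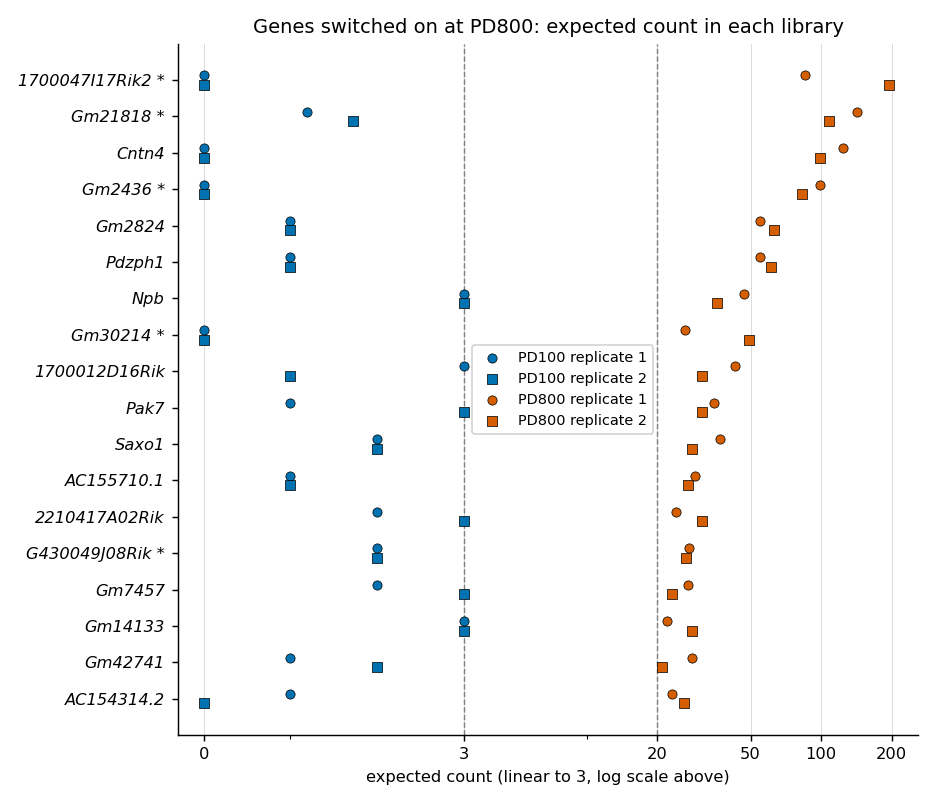
Expected count of each switched-on gene in each library, on an axis that is linear up to 3 and logarithmic above. Blue marks are PD100 and orange marks PD800, circles replicate 1 and squares replicate 2. The dashed lines are the limits of 3 and 20 counts that chose the genes, and an asterisk marks the 5 genes with a near-copy elsewhere in the genome. PD800 counts run from 21 to 195.27.

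Levels at PD800 were low. On the TPM scale, which is scaled for gene length, the means over the PD800 libraries ran from 0.135 to 3.19 with a median of 0.620, against a median of 2.40 over all tested genes. The 6 genes above 1 TPM were *Gm21818*, *Gm2436*, *Npb*, *1700012D16Rik*, *2210417A02Rik* and *Pdzph1*. *Gm21818* was the highest, above 54.4% of the tested genes, and *AC154314.2* the lowest, above 9.03% of them. All but *Gm21818* and *Gm2436* were below the median of tested genes even where they were on.

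**Figure D2:**
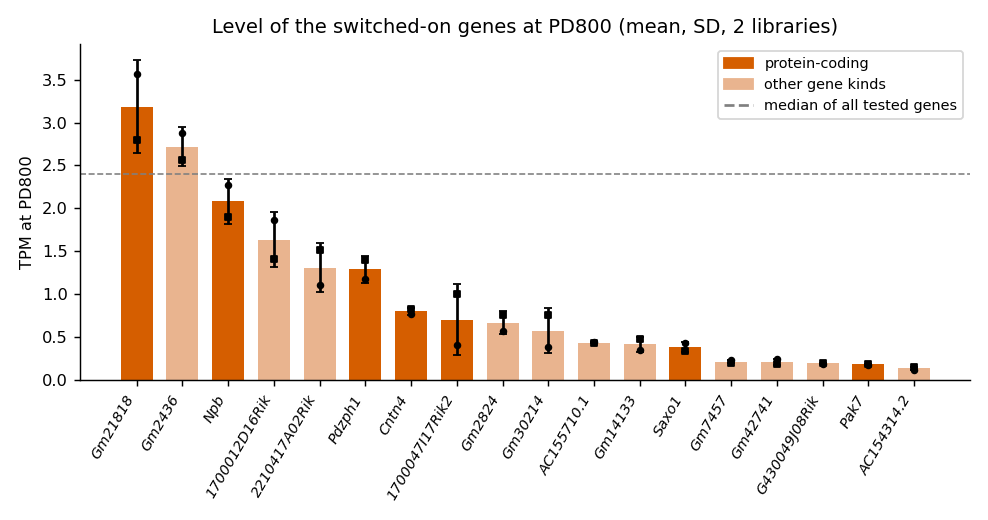
Level of each switched-on gene at PD800 in TPM. Bars are means of 2 libraries, error bars SDs, and points the libraries (circle, replicate 1; square, replicate 2). Dark bars are protein-coding genes, and the dashed line is the median of all tested genes at 2.40 TPM. *Gm21818* and *Gm2436* are the 2 bars above that line.

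Of the 18 genes, 5 have a near-copy, meaning another gene whose transcript is at least 90% identical over at least 80% of theirs. The same 5 had expected counts that were not whole numbers, as happens when reads are divided between genes, and the other 13 had whole counts in all 4 libraries. Over all tested genes, 34.5% had a count that was not whole. The stretches below are shown because they give a reader the few bases by which reads could be assigned to one copy of the reference genome. The paper names a parental strain for these cells other than that of the reference genome. The copies in the cells may therefore differ at other bases, which was not examined here. They are 120-base pieces of GENCODE M21 transcripts on GRCm38, 5′ to 3′, and capitals mark the positions at which the copies shown differ. For *Gm2436* the stretch is in exon 1 of 7, chr12:55150888-55151007 on the minus strand, beside *Gm2446* (chr12:55225952-55226071, exon 1 of 7) and coding exon 8 of *Ppp2r3c* (chr12:55289672-55289791), both on the same strand.

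Gm2436: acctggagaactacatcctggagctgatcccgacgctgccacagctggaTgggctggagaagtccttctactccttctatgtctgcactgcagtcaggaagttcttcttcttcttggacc
Gm2446: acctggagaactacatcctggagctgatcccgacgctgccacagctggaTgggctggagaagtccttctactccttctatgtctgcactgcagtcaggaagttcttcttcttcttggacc
Ppp2r3c: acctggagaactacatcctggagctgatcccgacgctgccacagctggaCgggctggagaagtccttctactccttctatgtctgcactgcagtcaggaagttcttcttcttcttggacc

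*Gm2436* and *Gm2446* were identical here and in all 771 bases of their alignment. *Ppp2r3c* differed from *Gm2436* at 4 positions of 774, of which 1 lies in this stretch. *Gm30214* and *Gm43650* are antisense transcripts on chromosome 14, and the stretch is from exon 3 of 3 in each (chr14:53033346-53033465 and chr14:53337566-53337685, both minus).

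Gm30214: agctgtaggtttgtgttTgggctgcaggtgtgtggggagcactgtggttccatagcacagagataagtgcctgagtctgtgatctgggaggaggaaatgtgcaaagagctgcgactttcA
Gm43650: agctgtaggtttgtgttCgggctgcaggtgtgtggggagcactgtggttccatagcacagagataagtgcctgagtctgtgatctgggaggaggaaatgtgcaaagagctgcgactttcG

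They differed at 7 positions of 1382, 2 of them shown. The third set is the coding sequence of *Gm21818* (chr13:120173519-120173638, plus strand) with *Tcstv1* (chr13:119893640-119893759, minus) and *Gm21761* (chr13:119912298-119912417, minus), each from a single exon.

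Gm21818: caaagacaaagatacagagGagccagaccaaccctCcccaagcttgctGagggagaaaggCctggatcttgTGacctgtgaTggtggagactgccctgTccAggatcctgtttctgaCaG
Tcstv1: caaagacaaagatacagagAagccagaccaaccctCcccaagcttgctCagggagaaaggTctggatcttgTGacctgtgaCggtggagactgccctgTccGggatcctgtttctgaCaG
Gm21761: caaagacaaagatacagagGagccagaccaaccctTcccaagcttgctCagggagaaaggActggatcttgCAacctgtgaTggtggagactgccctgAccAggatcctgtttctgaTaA

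These 3 coding sequences differed at 28 aligned positions, 11 of them in this stretch. The identical pair on chromosome 12 offers no such position in its aligned bases.

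On chromosome 12, the gene pair *Fam177a* and *Gm2436* is followed by an entry named *Srp54a*, then by a second pair with the same sequence, *1700047I17Rik2* and *Gm2446*, and then by *Srp54b* and *Ppp2r3c*, a regulatory subunit gene of protein phosphatase 2A. *Gm2436* (12:55142109 to 55151007, minus), an unprocessed pseudogene, had 0 counts in each PD100 library and 98.4 and 83.0 at PD800. Its copy *Gm2446* (12:55217176 to 55226072) did the opposite, with 137 and 92.2 counts at PD100 and 0 in each PD800 library. Summed over the pair, the counts were 137 and 92.2 at PD100 and 98.4 and 83.0 at PD800, which is −0.21 ± 0.19 (standard error) on the log2 scale, for which edgeR's quasi-likelihood test gave an adjusted p of 0.396. Adding *Ppp2r3c* gave −0.19 (standard error 0.08, adjusted p = 0.117 by the same edgeR test). The copies together did not pass the test, while their counts lay on one of the identical entries at PD100 and on the other at PD800.

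*1700047I17Rik2* (12:55199592 to 55217168, plus) is annotated as a protein-coding gene and is identical over all 3863 bases of its transcript to *Fam177a*. It had 0 counts in each PD100 library and 85.6 and 195 at PD800, the widest gap between PD800 replicates in the set, 2.55-fold in CPM. *Fam177a* had 999 and 741 counts at PD100 and 340 and 184 at PD800, so the replicate in which *1700047I17Rik2* was higher was that in which *Fam177a* was lower. The sum of both was 999 and 741 at PD100 and 426 and 379 at PD800. On the log2 scale the change was −0.99 ± 0.09 (standard error), with an adjusted p of 0.000569 by edgeR's test, just short of the 2-fold limit. Without PD100 replicate 2 the value was −1.09, past that limit. The level of this sequence was thus lower at PD800, whereas the single gene entry was switched on.

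**Figure D3:**
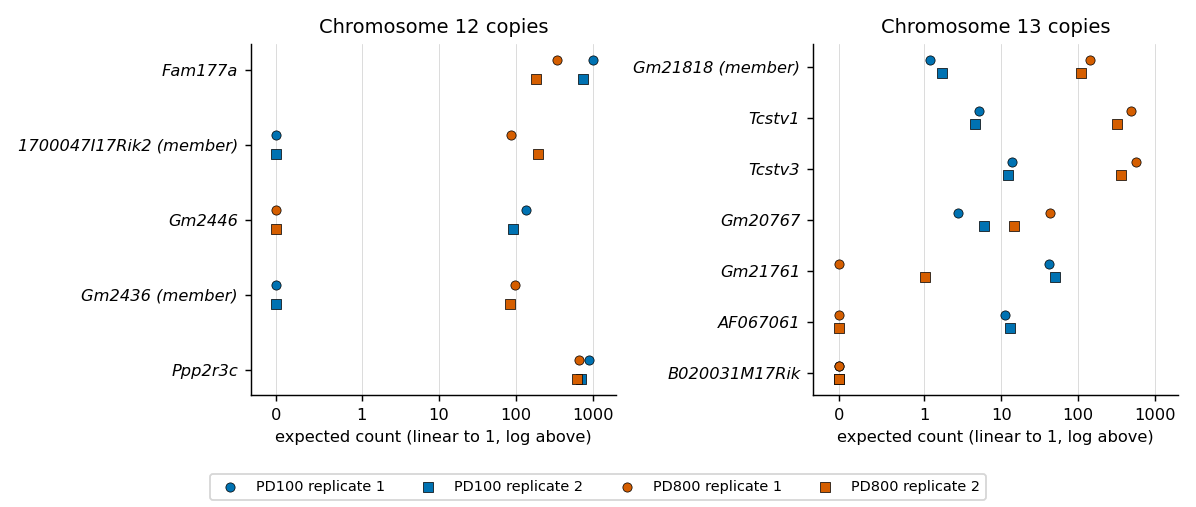
Expected counts of the copies on chromosome 12 (left) and chromosome 13 (right) in each library, on axes linear up to 1 and logarithmic above. Colours are PD100 (blue) and PD800 (orange), circles replicate 1 and squares replicate 2. On the left, *Gm2446* and *Gm2436* exchange places between the groups. On the right, *Tcstv1*, *Tcstv3* and *Gm21818* are high at PD800 while *Gm21761* and *AF067061* are near 0.

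*Gm21818* belongs to the *Tcstv* family, genes known for their expression at the 2-cell stage of the mouse embryo and in the few stem cells that resemble it. It lies 144 kb before the last annotated base of chromosome 13 (13:120172433 to 120173888, plus). It had 1.19 and 1.72 counts at PD100 and 143 and 108 at PD800, a CPM ratio of 90.6 (95% exact counting interval 30.7 to 442, on rounded sums). The 6 near-copies, 90.6% to 96.7% identical, did not move together. *Tcstv1* and *Tcstv3* were high at PD800, while *Gm21761* fell from 41.2 and 50.4 counts to 0 and 1.03 (adjusted p = 0.00103 by edgeR) and *AF067061* from 11.02 and 13.15 to 0 in each library (adjusted p = 0.00662 by edgeR). *B020031M17Rik* had 0 counts in all 4 libraries. Summed over the 7 genes, the counts were 75.0 and 88.0 at PD100 and 1236 and 805 at PD800. *Tcstv3* lies within mTALT, the subtelomeric sequence that this line joins to its telomeres in ALT, and *Tcstv1* and *Gm21818* lie in a region of chromosome 13 that shares some sequence with it. Per the paper, transcripts that include mTALT increased in post-ALT cells. From their sequence variants, it traces the telomeric repeat-containing RNA only to an mTALT copy on another chromosome, which the reference genome lacks. Reads of that copy and reads of the annotated genes cannot be told apart from gene counts. The part of extra mTALT copies in the counts of these *Tcstv* family genes was not tested. Of 13 genes in the list of 2-cell state genes, which holds *Tcstv1* and *Tcstv3*, 9 were tested, 2 were called higher and 7 lower, all 7 with under 10 counts in both PD800 libraries. *Tcstv1*, with 5.08 and 4.53 counts at PD100, passed the expression filter only through PD800. The median log2 fold change of the 9 was −4.85. The lowest was *Zscan4f* (−7.22) and the highest *Tcstv1* (6.40).

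*Gm30214* lies opposite the T cell receptor alpha variable gene *Trav13d-3*, with 391 exon bases in common. It had 0 counts in each PD100 library and 26.3 and 49.3 at PD800, at least 13.8-fold higher against the floor of 3 counts per library, and at least 8.91-fold without PD800 replicate 2. *Gm43650*, its 99.5% identical copy, had 1.22 and 1.18 counts at PD100 and 23.1 and 18.4 at PD800, just short of the limit in 1 library. The sum of the pair was 1.22 and 1.18 at PD100 and 49.4 and 67.7 at PD800, so that both entries were higher and the sum varied less between the PD800 replicates than *Gm30214* alone. *Trav13d-3* itself had 0 counts in all 4 libraries.

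*G430049J08Rik*, a TEC entry, had 2 counts in each PD100 library and 27.4 and 26.6 at PD800, a ratio of 14.6 (95% exact counting interval 5.39 to 55.6). Its transcript is 96.6% identical to *AC129208.1* and 95.9% identical to part of a transcript of the olfactory receptor gene *Olfr1459*. The 3 together had 73.0 and 45.7 counts at PD100 and 255 and 205 at PD800. Here too the summed copies were higher at PD800.

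The other 13 genes have no such copy. Of these, 5 were protein-coding and 8 were non-coding or unclassified, and their PD800 replicates differed by at most 1.44-fold in CPM. *Cntn4* (6:105677660 to 106699310, plus) was the one gene among them with 0 counts in both PD100 libraries. The other 3 genes of the 18 with no PD100 count were *Gm2436*, *1700047I17Rik2* and *Gm30214*, all with near-copies.

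The 250 bases upstream of RefSeq starts were read for 12 of the 18 genes (GRCm38.p6). The windows of 4 of the protein-coding genes without a near-copy are printed as examples of how CG content varied among them. Gene counts do not show which start was used, and the *Cntn4* window lies inside the gene as GENCODE M21 draws it. Capitals mark CG dinucleotides, the sites of DNA methylation. The positions are chr6:106118692-106118941 for *Cntn4*, chr2:136387968-136388217 (minus strand) for *Pak7*, chr17:58991376-58991625 (minus) for *Pdzph1* and chr4:86558304-86558553 (minus) for *Saxo1*.

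Cntn4: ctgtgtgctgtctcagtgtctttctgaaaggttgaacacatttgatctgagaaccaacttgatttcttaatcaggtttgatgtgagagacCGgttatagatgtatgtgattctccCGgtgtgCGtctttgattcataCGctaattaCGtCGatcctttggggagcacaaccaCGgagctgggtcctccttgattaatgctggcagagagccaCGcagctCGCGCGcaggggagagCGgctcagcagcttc
Pak7: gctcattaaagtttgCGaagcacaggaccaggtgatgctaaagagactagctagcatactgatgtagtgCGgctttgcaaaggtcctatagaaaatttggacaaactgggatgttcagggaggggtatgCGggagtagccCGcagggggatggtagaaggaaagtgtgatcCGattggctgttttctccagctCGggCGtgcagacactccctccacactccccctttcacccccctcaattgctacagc
Pdzph1: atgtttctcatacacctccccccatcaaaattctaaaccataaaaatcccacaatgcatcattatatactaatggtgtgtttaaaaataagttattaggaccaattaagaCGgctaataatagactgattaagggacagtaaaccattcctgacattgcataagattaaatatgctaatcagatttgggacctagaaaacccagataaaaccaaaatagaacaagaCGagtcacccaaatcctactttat
Saxo1: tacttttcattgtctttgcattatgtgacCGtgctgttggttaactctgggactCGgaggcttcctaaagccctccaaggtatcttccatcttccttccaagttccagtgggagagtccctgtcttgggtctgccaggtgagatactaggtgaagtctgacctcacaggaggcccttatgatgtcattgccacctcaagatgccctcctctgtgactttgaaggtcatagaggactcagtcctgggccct

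The *Cntn4* window held 12 CG and that of *Pak7* 7, and those of *Pdzph1* and *Saxo1* held 2 each. *Cntn4* has another RefSeq start nearby, whose window held 2. Over all 32851 windows of this length the median was 6, and 49.6% had at most 5, against 8 of the 13 windows of switched-on genes. Some of the 13 do not lie at the GENCODE M21 start of the counted entry. That of *Gm2436*, with 26 CG, lies away from it and covers the start of an entry named *Srp54a*, and that of *Gm2824* lies inside the gene. The letters TATAAA on either strand were found in 2 of the 13 windows, those of *2210417A02Rik* and *Gm30214*, and in 12.4% of all windows. No methylation or binding data were analysed here.

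*Cntn4*, contactin 4, is a membrane-anchored adhesion protein of axons with immunoglobulin domains. It had 0 counts in each PD100 library and 124 and 99 at PD800, or 3.27 ± 0.261 CPM (SD, n = 2), at least 39.8-fold above the floor of 3 counts per library. Its level was 0.77 and 0.83 TPM in the PD800 libraries. Where its reads lie along the gene was not examined. Of the other contactins, *Cntn1*, *Cntn2* and *Cntn3* were tested and 0 were called, with log2 fold changes of −0.14, 0.47 and 0.37. *Cntn5* had no count in any library and *Cntn6* 2 counts in 1 PD100 library. This family was listed after the switched-on genes were known, and the same is true of the relatives of *Npb* and *Saxo1* below.

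*Npb* (11:120608477 to 120609093, plus) encodes the precursor of neuropeptide B, a signalling peptide. It had 3 counts in each PD100 library and 47 and 36 at PD800, which was 2.09 ± 0.262 TPM (SD, n = 2), the highest level among genes without a near-copy. The CPM ratio was 15.0 (95% exact counting interval 6.60 to 42.0). *Npbwr1*, its receptor gene, had 0 counts in all 4 libraries, and *Npw*, the gene for the related neuropeptide W, had 15 and 28 counts at PD100 and 2 and 11 at PD800 (log2 fold change −1.61, adjusted p = 0.134 by edgeR). Reads were thus assigned to the ligand gene and not to its receptor gene at this depth, where a count of 0 allows up to the floor. The gene *Anapc11* ends 0.279 kb from *Npb* on the same strand. Reads that run on from it and reads of *Npb* cannot be told apart from gene counts.

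*Pak7* (2:136081104 to 136387967, minus), which encodes a p21-activated kinase found mainly in brain, had 1 and 3 counts at PD100 and 35 and 31 at PD800. The ratio was 17.9 (95% exact counting interval 6.66 to 67.5), and the level 0.185 ± 0.00707 TPM (SD, n = 2) was among the lowest of the set. The other 5 p21-activated kinases were all tested, and 0 were called in either direction, with log2 fold changes from −0.97 (*Pak6*) to −0.04 (*Pak4*). *Pak4* had between 1431 and 1814 counts in each library, so that *Pak7* stayed a small share of the family's reads.

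*Saxo1* (4:86444641 to 86558328, minus) encodes a protein that stabilises the microtubules of cilia and sperm tails. It had 2 counts in each PD100 library and 37 and 28 at PD800, a ratio of 17.6 (95% exact counting interval 6.55 to 66.5). Its relative *Saxo2* had 9 and 3 counts at PD100 and 24 and 20 at PD800, and its log2 fold change of 1.98 (standard error 0.45) missed the threshold with an adjusted p of 0.0145 by edgeR. *Pdzph1* (17:58878808 to 58991375, minus) encodes a protein with PDZ and pleckstrin homology domains, which bind protein ends and membrane lipids. It had 1 count in each PD100 library and 55 and 61 at PD800, a ratio of 62.8 (95% exact counting interval 17.01 to 525). It was the highest ratio among the coding genes without a near-copy that had a PD100 count.

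Position was not used to choose the genes, and the genes around them were tested like any other. Within 500 kb of a switched-on gene lay 166 tested genes that were not themselves switched on, and 63 of them were called higher at PD800 (38.0%, against 6.28% of all tested genes) and 6 lower (3.61%, against 8.81%). Of the 6, 4 were near-copies of switched-on genes, and with all near-copies left out 60 of 157 were called higher and 2 lower (1.27%). The median log2 fold change of the 166 was 0.83. Of the 63, 36 lay near *Npb*. Without its neighbours 27 of 118 were called higher (22.9%) and 6 lower (5.08%), with a median of 0.52. Within 100 kb, 22 of 48 were called higher and 4 lower (8.33%), and within 2000 kb 119 of 513 were called higher (23.2%) and 36 lower (7.02%). For 8 of the 18 genes the single nearest tested gene was called higher, against 6.18% of tested genes at large. Of the 63 neighbours called higher, 7 had under 10 counts in both PD100 libraries and passed the expression filter through PD800, as did 1 of the 8 nearest ones. Neighbours share regions, so they are not independent of each other, and no test was made of the share. The DNA copy number of these regions was not examined here.

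**Figure D4:**
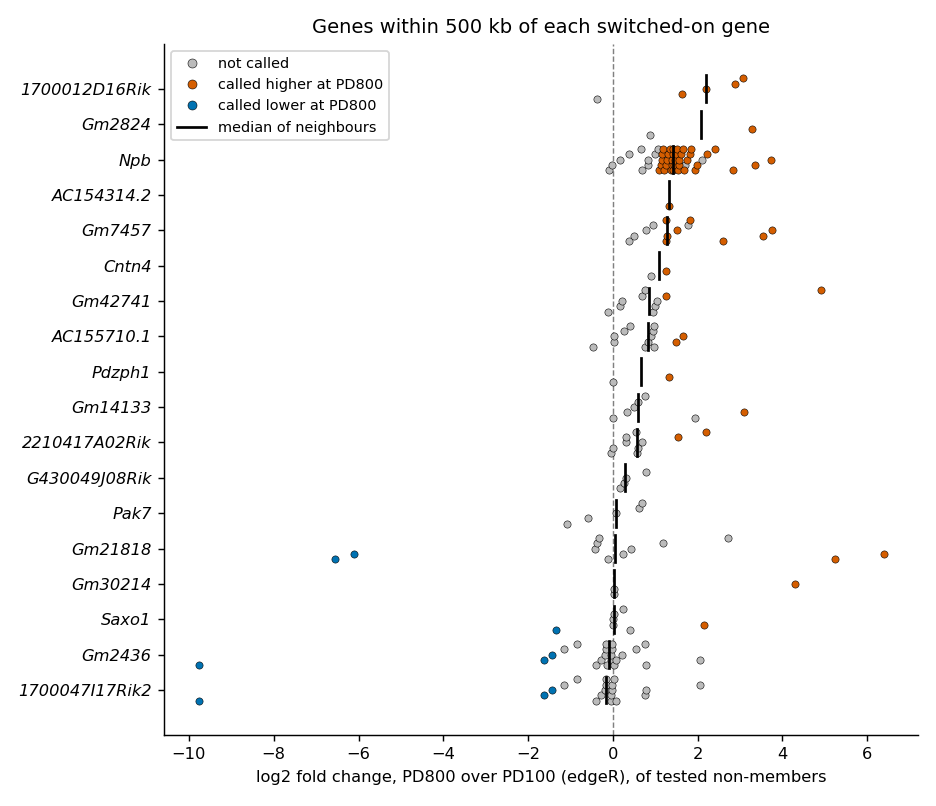
Log2 fold change (PD800 over PD100, edgeR) of the tested genes within 500 kb of each switched-on gene, in rows sorted by their median (black bar). Orange marks are genes called higher, blue marks genes called lower and grey marks genes that were not called, and the vertical shift of points within a row has no meaning. The dashed line is the median of all tested genes at 0.01. The neighbours of *Npb* form the densest row, with 36 of 48 called higher and a median of 1.41.

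*Npb* lies 1362 kb from the last annotated base of chromosome 11. Of 48 tested genes within 500 kb, 36 were called higher, 0 were called lower and 46 had a log2 fold change above 0. *Anapc11*, a subunit gene of the anaphase-promoting complex that ends 0.279 kb from *Npb* on the same strand, had 1429 and 1709 counts at PD100 and 3113 and 3114 at PD800. This is a change of 1.08 ± 0.18 (standard error) on the log2 scale with an adjusted p of 0.00413 by edgeR, and 0.84 without PD100 replicate 1, which is under the 2-fold limit. *Notum*, a secreted enzyme gene that inactivates Wnt proteins, rose by 2.40 on the log2 scale (adjusted p = 4.88e-05 by edgeR). *2810410L24Rik* had the largest log2 fold change there, 3.74, from 11 and 6 counts to 102 and 109. Most tested genes around *Npb* were thus also higher.

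Among the non-coding or unclassified genes without a copy, those in or beside a protein-coding gene that rose are given first. They were put together after the values were seen, and the share of other genes with such a neighbour was not counted. *1700012D16Rik* (3:153296504 to 153298649, minus) is a sense intronic transcript inside *St6galnac3*, the gene of a sialyltransferase, with which it shares a strand and no exon base. It had 3 and 1 counts at PD100 and 43 and 31 at PD800. *St6galnac3* rose from 115 and 93 counts to 802 and 625, or by 2.89 ± 0.12 (standard error) on the log2 scale (adjusted p = 5.27e-05 by edgeR). Of the 5 tested neighbours of *1700012D16Rik*, 4 were called higher, among them the TEC entry *A530083M17Rik* 10.7 kb away, which went from 25 and 16 counts to 196 and 123. Unspliced *St6galnac3* reads and reads of *1700012D16Rik* cannot be told apart from gene counts.

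*Gm7457* (6:142814231 to 142833494, plus), a processed transcript, lies opposite *St8sia1*, which encodes the sialyltransferase that makes ganglioside GD3, and 149 of its exon bases are also exon bases of that gene. It had 2 and 3 counts at PD100 and 27 and 23 at PD800, a ratio of 10.8 (95% exact counting interval 4.35 to 34.8). *St8sia1* rose from 138 and 105 counts to 1613 and 1433 (log2 fold change 3.76 ± 0.09 standard error, adjusted p = 3.03e-05 by edgeR). Of the 13 tested neighbours of *Gm7457*, 8 were called higher, including *Cmas*, which activates sialic acid, and *Ldhb*, a subunit gene of lactate dehydrogenase with a log2 fold change of 2.61, and all 13 had a log2 fold change above 0. The study shows RNA reads by direction of transcription, but whether the gene counts used strand is not given in the sources used here, and the reads over the common bases were not separated.

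*Gm42741* (6:127772373 to 127774650, minus), a TEC entry, lies 2.90 kb upstream of *Prmt8*, the gene of a brain-enriched arginine methyltransferase, on the same strand. It had 1 and 2 counts at PD100 and 28 and 21 at PD800, while *Prmt8* had 28 and 34 counts at PD100 and 919 and 811 at PD800. *Prmt8* was the gene called with the highest log2 fold change among the 10 tested neighbours (4.91 ± 0.16 standard error, adjusted p = 3.86e-05 by edgeR). The remaining neighbours of *Gm42741* held 1 more call, *9330102E08Rik*. Of 9 arginine methyltransferase genes, *Prmt8* was the 1 called, and the median log2 fold change of the 9 was −0.23.

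*Gm14133* (2:149743927 to 149798743, minus), a lincRNA, had 3 counts in each PD100 library and 22 and 28 at PD800, which gave the lowest ratio among the genes with a PD100 count, 9.03 (95% exact counting interval 3.87 to 25.8). Its nearest called gene, *Syndig1*, the gene of a transmembrane protein of excitatory synapses, lies 30.5 kb away and went from 53.7 and 38 counts to 419 and 307 (log2 fold change 3.09, adjusted p = 0.000115 by edgeR). *Gm14133* also shares 162 exon bases with *Gm14130*, a processed pseudogene on the other strand, which was not called (log2 fold change 1.93, adjusted p = 0.112 by edgeR).

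The remaining lincRNAs and TEC entries lay farther from any called gene. *Gm2824* (15:24981620 to 25027358, minus) had 1 count in each PD100 library and 55 and 63 at PD800, the highest ratio among genes without a copy that had a PD100 count, 63.9 (95% exact counting interval 17.3 to 534). Its nearest tested gene, the lincRNA *AC161537.1* at 258 kb, had 3 and 1 counts at PD100 and 23 and 15 at PD800 (adjusted p = 0.00417 by edgeR). It passed the expression filter through PD800 alone, and its call was lost without either PD800 library (adjusted p = 0.0381 and 0.0106). *AC154314.2* (13:47910435 to 47934301, plus), listed as *G630093K05Rik* in GENCODE M21, had 1 and 0 counts at PD100 and 23 and 26 at PD800. The one tested gene near it, *Id4*, an inhibitor of helix-loop-helix transcription factors, was called higher (log2 fold change 1.32, adjusted p = 0.00126 by edgeR) at a distance of 327 kb. *2210417A02Rik* (5:148741840 to 148743139, plus) had 2 and 3 counts at PD100 and 24 and 31 at PD800, and *AC155710.1* (10:95116379 to 95117731, plus), *Gm48868* in GENCODE M21, had 1 count in each PD100 library and 29 and 27 at PD800. For both, the nearest tested gene was not called.

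Among the coding genes, *Pdzph1* and *Saxo1* each had a called gene next to them. *Nudt12*, a hydrolase gene 8.24 kb from *Pdzph1*, rose with a log2 fold change of 1.32 (adjusted p = 0.000372 by edgeR), and *Adamtsl1*, an extracellular matrix gene 16.3 kb from *Saxo1*, with 2.15 (adjusted p = 9.78e-05 by edgeR). *Plin2*, on the other side of *Saxo1*, was called lower. *Cntn4* had *Crbn*, a subunit gene of a ubiquitin ligase, as a called neighbour at 80.9 kb (log2 fold change 1.26, adjusted p = 0.000248 by edgeR), whereas the nearer *Trnt1* was under the 2-fold limit at 0.91. *Pak7* had 5 tested neighbours, of which 0 were called in either direction, with a median log2 fold change of 0.07. *Pak7* was the one coding gene without a copy that had no called neighbour.

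The lists of lineage genes give the setting for these genes, with the switched-on genes left out. Calls are counted over the genes that passed the expression filter, and some genes passed it only through the group in which they were high. Of all 1202 genes called higher, 124 had under 10 counts in both PD100 libraries. *Cntn4*, *Npb* and *Pak7* are best known from nerve cells. Of 8 neuron markers, 2 were called higher, the tubulin gene *Tubb3* (log2 fold change 1.25) and *Stmn2* (1.04, and 0.98 without PD100 replicate 1, under the 2-fold limit), and 1 was called lower, the synaptic vesicle gene *Syp* (−2.53), with a median of −0.03. Of 13 tested ionotropic glutamate receptor genes, out of 18 listed, 4 were called higher and 0 lower (1 with under 10 counts in both PD100 libraries), from *Grik3* (1.23) to *Grin1* (3.21), and of 11 tested voltage-gated sodium channel genes, out of 13, 5 were called higher and 0 lower, from *Scn8a* (1.14) to *Scn3a* (3.73). Clustered protocadherins, adhesion genes of neurons, had 29 tested genes of the 58 in the files, of which 21 were called higher and 0 lower, with a median of 1.64 and calls from *Pcdhga10* (1.40) to *Pcdhb14* (3.26).

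Of 6 germ cell markers, 1 was called higher (*Dazl*, 2.33 on the log2 scale) and 0 lower, and of 23 tested genes of meiosis entry and synapsis, out of 26, 8 were called higher, *Stra8* most (4.52), and 3 lower, *Syce3* most (−1.65). Of 1406 olfactory receptor genes 34 were tested and 1000 had no count in any library. Of the 34, 10 were called higher, 2 of them with under 10 counts in both PD100 libraries, and 0 lower, from *Olfr986* (1.07) to *Olfr1459* (3.10). Of 555 vomeronasal receptor genes 18 were tested and 391 had no count, and *Vmn1r51* (1.97) and *Vmn1r53* (2.45) were called higher, 1 of them with under 10 counts in both PD100 libraries. Of 21 genes of the NLR pyrin family 10 were tested and 4 called higher, from *Nlrp5-ps* (1.61) to *Nlrp9c* (3.17), the last with 4 and 1 counts at PD100. In both families 0 were called lower. Of 65 zinc finger genes of the *Zfp900* series 61 were tested and 19 called higher, *Zfp971* most (2.25), and 1 lower, *Zfp958* (−1.46). Of 10 mesendoderm factors 6 were tested. *Foxa2* (−7.27) was called lower and 3 were called higher, *Gsc* most (3.57), but *Gsc*, with 1 and 6 counts at PD100, and *Foxa1*, with 3 and 1, passed the filter only through PD800. Of 5 tested acyl-CoA thioesterase genes, out of 6, 3 were called higher, from *Acot2* (1.18) to *Acot3* (3.45), 2 of them with under 10 counts in both PD100 libraries, and 0 lower. Of 15 tested retinoic acid genes, out of 17, 1 was called higher, *Aldh1a3* (1.35), and 3 lower, *Cyp26a1* most (−5.13).

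Among markers of other cell types, those of primitive endoderm and fibroblasts moved mostly down. All 6 primitive endoderm markers were called lower, from *Foxa2* (−7.27) to *Gata4* (−2.88), at a median of −4.30 on the log2 scale. Of 9 tested fibroblast feeder markers, out of 10, 5 were called lower, from *Pdgfra* (−4.93) to *Thy1* (−1.75), and 0 higher, with a median of −2.33. Summed over the fibroblast list, the level was 81.9 and 106 CPM at PD100 and 17.9 and 18.6 CPM at PD800. *Pdgfra* is in the primitive endoderm list too and is counted in both. Its mean was 31.9 CPM at PD100 and 1.04 CPM at PD800, so part of the fibroblast fall is that of an endoderm marker. Of 2 tested blood markers 1 was called lower (*Ptprc*, −2.41), of 4 endothelium markers 2 (*Cdh5*, −2.43, and *Kdr*, −1.81), and of 4 tested trophoblast markers 2 (*Hand1* most, −2.92), with 1 higher (*Eomes*, 1.98). With 1 PD800 library left out, the calls of *Cdh5*, *Nlrp9c*, *Olfr986*, *Ptprc*, *Scn8a*, *Syce3*, *Vmn1r51* and *Vmn1r53* were lost in at least 1 case, with adjusted p from 0.0126 to 0.0496 by edgeR. Those of *Syce3* and *Vmn1r51* were also lost without PD100 replicate 1 (0.0124 and 0.0104), and that of *Vmn1r51* without PD100 replicate 2 (0.0134). Fewer cells of a type and less RNA per cell cannot be told apart in these bulk libraries, and the part of such cells in the switched-on genes was not tested.

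The limits that chose the set cut through a run of similar genes. With ties taken by name, just inside the PD100 limit were *1700012D16Rik* (3 and 1 counts), *2210417A02Rik* (2 and 3) and *Gm14133* (3 and 3). Just outside it were *Grin1os* (2 and 3.16 counts at PD100, 30.8 and 27.1 at PD800), *AC158538.2* (4 and 2, then 38 and 26) and *AI593442* (2 and 4, then 35 and 40). At the PD800 limit, *Gm42741* (28 and 21 counts), *Gm14133* (22 and 28) and *AC154314.2* (23 and 26) were just inside, and *4732463B04Rik* (21.6 and 18.8), *Gm43650* (23.1 and 18.4) and *Gm15262* (19 and 18) just outside. No gap in the counts separates the 18 genes from the rest.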

How the data were processed

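RNA of DKO741 cells at PD100 and PD800 was measured in 2 libraries each, grouped by the population doubling in their titles. Per the study's methods and the labels, the authors aligned 101 bp read pairs to mm10 with STAR 2.5.3a and made expected counts and TPM values with RSEM 1.3.0. The deposited expected counts are estimated per gene and not scaled for depth. The deposited TPM values are corrected for gene length and sum to one fixed total. The annotation release is not given in the sources used here, and 53274 of 53379 gene identifiers were found in GENCODE M21 (GRCm38), which gave positions and gene kinds. The labels name total RNA, and the paper speaks of mRNA.

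Expected counts were rounded and fitted with edgeR 4.0.16 under R 4.3.3 (quasi-likelihood test, TMM scaling, filterByExpr at 10 counts, Benjamini-Hochberg adjustment over 19148 genes). The 18 genes themselves were counted on unrounded values. CPM used the library totals, 32454121 to 38492149 counts, scaled by TMM. A fold against libraries at 0 was taken against a floor of 3 counts in each, and other folds carry an exact 95% counting interval. A count was called not whole above a difference of 0.005. Near-copies were found with blastn 2.17.0 among GENCODE M21 transcripts. Promoter sequences are from RefSeq. The procedure was tested on simulated data. The members and lists were chosen with earlier results of these data known. Every switched-on gene, the highest and lowest called gene of each list (a few items are not reported here), and genes beside the limits were named by rule; other neighbours, the contactins, the relatives of *Npb* and *Saxo1*, and the near-copy sums were picked with values in view. As alternatives, the fits were repeated with DESeq2 1.42.0, other scalings and filters, limma 3.58.1 on TPM values, the replicate block, other limits and distances, and each library left out.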

Additional observations from a re-analysis of the deposited data

How the results depend on the processing

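The number of switched-on genes followed the limits. It was 8 with at most 1 count at PD100, 31 with at most 5, 69 with at least 10 counts at PD800 and 6 with at least 40. With limits on TMM-scaled or rounded counts it stayed within 1.5 times, and 13 were left without genes that have a near-copy (chosen after seeing the data). Without PD100 replicate 1 it was 40, without PD100 replicate 2 it was 29, without PD800 replicate 1 it was 20 and without PD800 replicate 2 it was 28, since each omission removes a condition. Limma on log2(TPM + 1) called 274 genes higher and 872 lower, and limma on log2(TPM + 0.1) called 454 higher; the cause was not tested. Leaving out a library gave 924 to 1526 higher and 1316 to 1872 lower genes. Among neighbours, 119 of 513 within 2000 kb were called higher, and 27 of 118 without the neighbours of *Npb*. For 54 named genes outside the set, 557 of 634 alternative fits kept direction and call, 77 lost the call and 0 turned direction. The PD800 level of each switched-on gene moved by at most 0.552% with another scaling. Without 1 PD800 library, *1700047I17Rik2* moved from 4.23 to 2.38 or 6.08 CPM and *Gm30214* from 1.13 to 0.731 or 1.53 CPM. With counts this low, the intervals of the ratios are wide, and they leave out the spread between replicates.

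Same-numbered libraries deviated together with a correlation of 0.265 over genes, but with 2 pairs and no label of a shared batch the numbers pair nothing by design. With the replicate block 1461 genes were called higher and 1956 lower, 66 of the 166 neighbours were called higher, and the list counts were 100 higher and 37 lower against 92 and 34. The summed copies of *Gm2436* and *Ppp2r3c* stayed short of the threshold with the block (adjusted p = 0.0768 by edgeR), and over all alternatives for this sum its adjusted p ran from 0.0158 to 0.507.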

Other observations

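A further 13 genes had at most 5 counts in both PD100 libraries and at least 20 in both PD800 libraries without meeting the limits used above. The highest was *1700108F19Rik*, a processed transcript on chromosome 14, with 5 counts in each PD100 library and 178 and 104 at PD800, more than most of the 18. *Slc6a5*, the gene of a neuronal glycine transporter, had 3 and 4 counts at PD100 and 27 and 25 at PD800. *Nlrp9c*, an NLR family gene known from oocytes, had 4 and 1 counts and then 20 and 23. *Myadml2os*, an antisense transcript 38.6 kb from *Npb*, had 4 and 3 counts and then 37 and 31. *Olfr153*, an olfactory receptor gene, had 5 and 3 counts and then 22.9 and 30.0, and *Crisp1*, a gene of the male reproductive tract, 5 and 4 and then 21 and 22. These genes were chosen after their values were seen, so their differences are given as a description.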
